A study of Rattus norvegicus with 12 samples.

Results

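Antibiotics given by mouth deplete gut bacteria, and the liver is the first organ to receive blood from the gut. The 6 liver arrays described here compare 3 Han Wistar rats that drank streptomycin and penicillin with 3 untreated rats of that strain. They were chosen by their titles, 6 of the 12 arrays of the series, and all 31042 probe sets other than the 57 array controls were tested. The other 6 arrays, from 3 germ-free and 3 conventional Sprague Dawley rats, enter only where the 2 comparisons are set against each other.

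The treated rats (animals 13, 14 and 15) drank the antibiotics freely for 8 days until necropsy. Streptomycin was at 4 mg/ml and penicillin at 2 mg/ml in a solution supplied as a 10X stock, and 30 mL of stock with 270 mL of drinking water gave 300 mL, per the labels' protocol. Whether those concentrations hold before or after dilution is not settled there. The untreated rats are animals 1, 2 and 3. The labels give no age, sex, diet or time of day of collection for either group, and the bacteria left in the treated rats were not analysed here. Each value is a signal, a linear probe set intensity scaled by the submitters, and 1 array was run per animal.

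Bacterial products and bacterially modified bile acids reach the liver through the portal vein. Kupffer cells, the resident macrophages of the liver sinusoids, take up bacterial material, and type I interferon induces a set of antiviral genes in most liver cells. Hepatocytes make bile acids from cholesterol, and gut bacteria deconjugate and dehydroxylate them. Liver lipid and steroid metabolism also follow feeding, growth hormone and the daily cycle.

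Across probe sets the 6 arrays correlated at 0.985 to 0.988 among untreated, 0.983 to 0.985 among treated and 0.982 to 0.985 between the groups. The first principal component, with 28.9% of the variance, placed all untreated arrays on 1 side (-10.48, -14.22 and -16.38) and all treated arrays on the other (16.18, 15.61 and 9.28). RNA integrity, read from the ratio of 3′ to 5′ control signals, was 2.55 ± 0.123 for actin in untreated and 2.73 ± 0.131 in treated livers (SD, n = 3; two-sided exact permutation p = 0.2, where the smallest possible is 0.1). For Gapdh the ratios were 1.34 ± 0.0695 and 1.41 ± 0.0796 (SD, n = 3; two-sided exact permutation p = 0.5). The 14 hepatocyte markers on the array, among them albumin and Apoa1, had signals of 1093.7 to 8482.9 in every liver.

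No probe set passed the adjusted threshold of 0.05 in limma on log2(signal + 16), that is 0 of 31042 or 0%, with p-values adjusted by Benjamini-Hochberg over all of them. At an unadjusted p under 0.05 there were 2753 probe sets (8.87%), of which 1442 were higher (4.65%) and 1311 lower (4.22%) in treated livers. Centring each array on its median turned that split to 901 higher and 1985 lower of 2886. In 2410 probe sets (7.76%) all treated animals lay above all untreated ones, and in 2045 (6.59%) below. The genes below are those with the smallest p and no overlap, together with bile acid genes and list members named whether or not they separated, and none of their antibiotic differences passed the adjusted test in the fit on all probe sets of the 6 arrays. The median standard error of a log2 difference was 0.142, and 3 animals a group limit what can be resolved gene by gene. Since whole liver was measured, fewer cells of a type and less RNA per cell cannot be told apart in any result below.

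Among probe sets annotated to 1 gene, with signal at or above the median and no overlap between groups, Igfbp2 and Bcl6 had the largest log2 differences in their directions. Igfbp2 encodes a binding protein for insulin-like growth factors, and Bcl6 a transcriptional repressor that in liver responds to growth hormone and restrains fatty acid oxidation genes. Igfbp2 had signals of 38.1, 25.7 and 52.0 in untreated animals 1, 2 and 3, and of 391.8, 765.8 and 247.0 in treated animals 13, 14 and 15. Every treated liver was far above every untreated one, and the treated animals themselves spread over several-fold. The log2 difference was 3.03 ± 0.36 (SE), or 8.17-fold, with a limma adjusted p of 0.183. Bcl6 went the other way, with 437.9, 373.0 and 307.6 in untreated and 29.1, 75.8 and 82.1 in treated livers. The groups were well apart, and animal 13 was lowest. Its log2 difference was -2.38 ± 0.28 (SE; limma adjusted p = 0.183). Tmem14a, a small membrane protein, stood at 93.4, 88.3 and 79.9 in untreated livers and at 21.2, 1.9 and 2.9 in treated ones, where 2 of the 3 values are close to the bottom of the scale. Its log2 difference was -2.15 ± 0.27 (SE; limma adjusted p = 0.256). Igfbp2 and Bcl6 passed (adjusted p = 0.0483 each) when the fit used 1 probe set per gene and genes at or above the median signal of 19.45; Tmem14a met that minimum only through its untreated livers. Bcl6 and Tmem14a passed without treated animal 13 (adjusted p = 0.0455 and 0.03), and Tmem14a passed in the fit over all 12 arrays (adjusted p = 0.0141). In that fit Igfbp2 and Bcl6 did not pass (limma adjusted p = 0.167 and 0.291). Leaving out 1 animal at a time never brought the limma adjusted p of Igfbp2 below 0.189. For Igfbp2, Bcl6 and Tmem14a alike it reached 0.586 in the least favourable case.

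**Figure D1:**
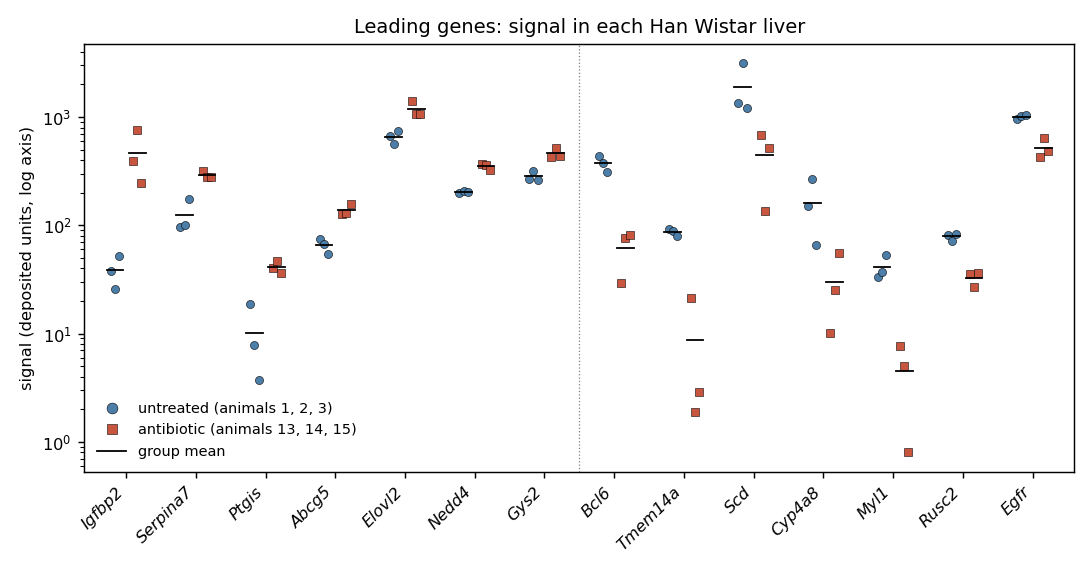
Signal of 14 named genes in each of the 6 livers, on a log axis; circles are the 3 untreated and squares the 3 antibiotic-treated Han Wistar rats, and short lines are group means. The groups do not overlap in any of the genes drawn, which were named partly for that. The treated animals of Igfbp2, Tmem14a, Scd, Cyp4a8 and Myl1 spread over several-fold, and treated signals of Tmem14a and Myl1 reach the bottom of the scale.

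Genes of lipid and sterol handling were among the other separations. Abcg5, which pairs with Abcg8 as the sterol exporter of the canalicular membrane, had signals of 75.3, 66.7 and 54.1 in untreated and 126.5, 131.0 and 155.7 in treated livers (log2 0.92 ± 0.13, SE; limma adjusted p = 0.329). All treated animals were higher. Elovl2, which elongates polyunsaturated fatty acids, had 670.5, 566.9 and 738.7 against 1402.2, 1062.8 and 1077.4 (log2 0.82 ± 0.14; adjusted p = 0.341). Scd, the stearoyl-CoA desaturase that makes monounsaturated fatty acids, was lower in all treated animals, at 1339.1, 3128.9 and 1222.8 in untreated and 686.6, 136.9 and 522.7 in treated livers. Its log2 difference was -2.17 ± 0.56 (adjusted p = 0.395), with animal 2 high and animal 14 low. Cyp4a8, of a family of fatty acid hydroxylases, had 150.5, 267.4 and 66.1 in untreated and 10.1, 25.2 and 55.2 in treated livers (log2 -1.89 ± 0.47; adjusted p = 0.395). The highest treated animal lay just under the lowest untreated one. A second probe set gave -1.01, also without overlap. Its close relatives share sequence, so the probe sets of Cyp4a8 may not be specific. Gpam, which starts glycerolipid synthesis, was higher in treated livers by 0.62 ± 0.17 (adjusted p = 0.397), and Gys2, the liver glycogen synthase, by 0.68 ± 0.11 (adjusted p = 0.341) on the log2 scale, both without overlap.

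Further genes with small p had various functions. Egfr, the epidermal growth factor receptor of hepatocytes, had 951.6, 1015.0 and 1040.4 in untreated and 425.5, 644.0 and 490.0 in treated livers. All treated livers were lower, and its log2 difference was -0.95 ± 0.14 (adjusted p = 0.331); of 2 further Egfr probe sets, one differed by -0.88 and the other by 0.22. Rusc2, an adaptor of vesicle traffic, was lower by -0.97 ± 0.14 (adjusted p = 0.329). Ddc, the enzyme that makes dopamine and serotonin from their amino acid precursors, had a log2 difference of -0.66 ± 0.09 (adjusted p = 0.329). Serpina7, the thyroxine-binding globulin of plasma, had signals of 95.6, 101.2 and 173.9 against 317.9, 281.5 and 280.6 (log2 1.19 ± 0.19; adjusted p = 0.341), higher in all treated livers. Ptgis, which makes prostacyclin, had 18.6, 7.9 and 3.7 against 40.0, 46.8 and 36.6 (log2 1.17 ± 0.22, limma adjusted p = 0.342). Its untreated signals were below the median of all probe sets (19.45). Ptgis met that minimum for being named only through its treated livers, which favoured a higher result. Nedd4, a ubiquitin ligase, was higher by 0.74 ± 0.08 (adjusted p = 0.183), but its 5 further probe sets gave 0.17, 0.11, -0.01, 0.41 and 0.22. Bco1, which cleaves beta-carotene to retinal, had 45.4, 43.7 and 39.5 against 74.6, 106.7 and 146.4 (log2 1.05 ± 0.20; adjusted p = 0.342). Sesn2, a stress-induced regulator of nutrient signalling, was lower at 209.0, 219.0 and 205.1 against 137.7, 112.4 and 154.3 (log2 -0.60 ± 0.12; adjusted p = 0.342), and a second probe set gave -0.10.

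Bile acid genes, which link the liver to gut bacteria, were mostly level. Of 16 synthesis and conjugation genes measured above the median signal, 3 were higher and none lower at an unadjusted p under 0.05, against 6.11% higher and 5.74% lower over all 9323 genes measured in this way. The count of 3 was 1 after quantile normalization, 6 without treated animal 14, and 5 without untreated animal 3, with a robust prior or with a fit above the median signal. Cyp8b1, which directs synthesis toward cholic acid, had signals of 2976.3, 2279.4 and 2408.6 in untreated and 4465.5, 4028.6 and 3563.7 in treated livers. All treated livers were higher (log2 0.65 ± 0.13; adjusted p = 0.357; 0.45 after quantile normalization, which gives every array the same distribution of values). Cyp7a1, whose product sets the pace of bile acid production, had 375.4, 462.3 and 229.8 against 78.3, 523.3 and 537.5, so 2 treated animals were above all untreated ones and animal 13 below all of them (log2 -0.24 ± 0.62; adjusted p = 0.95). Without single animals its difference ran from -0.67 to 0.61. Nr0b2, the repressor SHP that bile acids induce, also overlapped (log2 -0.14 ± 0.37), as did Nr1h4, the bile acid receptor FXR (-0.03 ± 0.10), Abcb11, the bile salt export pump (-0.04 ± 0.16), Slc10a1, the sodium-dependent uptake carrier (0.14 ± 0.12), and Cyp27a1 (0.05 ± 0.08). Of 15 transport genes, Abcg5 was higher and Abcg2, an exporter of sulfate conjugates and xenobiotics, lower (-0.70 ± 0.21, limma adjusted p = 0.429). Among 20 cholesterol synthesis and uptake genes, 0 were higher and 1, Stard4, was lower (-0.49 ± 0.15; adjusted p = 0.446), while its 2 further probe sets gave 0.15 and -0.25. The median of the list was -0.16 against 0.00 over all genes, but -0.03 without untreated animal 2, -0.04 without treated animal 14 and -0.26 without untreated animal 3.

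The brightest probe sets were higher on the treated arrays as a class. Of 138 probe sets with a mean signal over 4000, 92 (66.7%) were higher and 0 lower at an unadjusted p under 0.05, with a median log2 difference of 0.34. Of 341 between 2000 and 4000, 104 (30.5%) were higher, with a median of 0.18. Below 1000 no class had a median beyond 0.03 in size. The highest single signals were 6779, 6640.1 and 7902.8 on untreated arrays and 10666, 8369.8 and 9423.8 on treated ones. After quantile normalization the class over 4000 had a median of 0.01, with 3 higher and 4 lower. Lists that consist mainly of bright hepatocyte genes therefore gave different counts under the 2 scalings, and whether RNA amount, labelling or expression moved with the bright end was not tested.

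**Figure D2:**
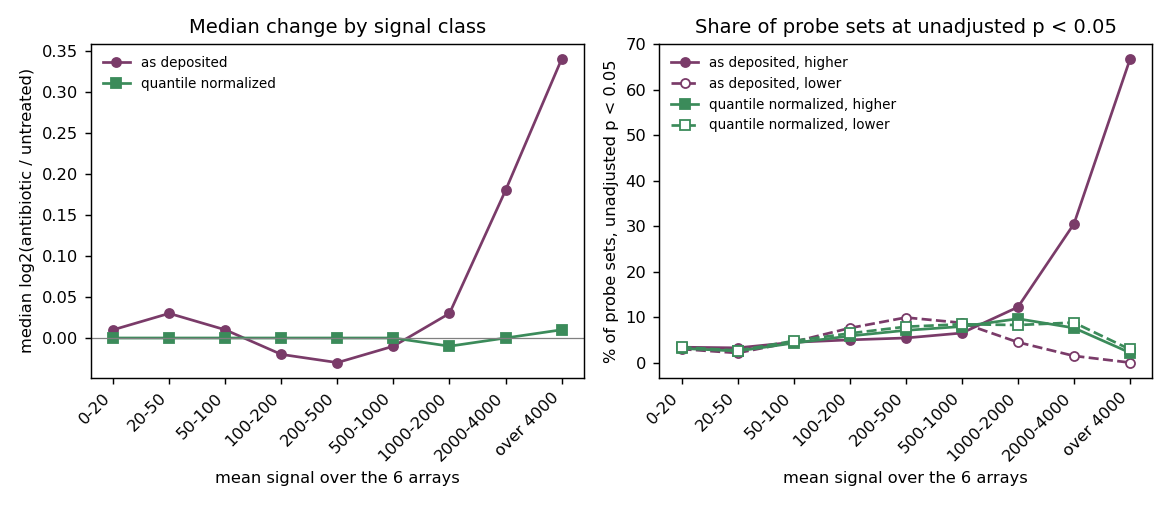
Left, median log2 difference (treated minus untreated) of probe sets in 9 classes of mean signal; right, share of each class (%) at an unadjusted p under 0.05, for values as deposited and after quantile normalization. As deposited the median reaches 0.34 and the share higher 66.7% in the class over 4000, and after quantile normalization these are 0.01 and 2.17%.

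Hepatocyte secretory and metabolic genes followed that pattern. Over all genes the shares were 6.11% higher and 5.74% lower over all genes as deposited and 5.07% and 5.61% after quantile normalization. Of 14 hepatocyte markers, 11 were higher as deposited, with a median of 0.39, and 0 after quantile normalization, with a median of 0.04. Of 33 acute phase and inflammation genes, 15 were higher and 0 lower as deposited, against 1 and 1 (3.03% each, below the shares over all genes) after quantile normalization, and the median went from 0.23 to -0.02. The member higher under both was A2m, alpha-2-macroglobulin, a protease inhibitor that marks acute inflammation in the rat (0.47 ± 0.15; 0.46 quantile normalized; adjusted p = 0.451). Cebpd, an inflammatory transcription factor, had 0.40 and 0.38 but did not reach an unadjusted p under 0.05 after quantile normalization. Without untreated animal 1 or 2, or treated animal 13 or 15, the as-deposited count of 15 was 4, 2, 5 and 7, and with median centring 7. The hepatocyte count of 11 was 5 without untreated animal 1, 4 without 2 and 7 without treated animal 13. Phase I oxidation genes gave 10 higher and 3 lower of 32 as deposited and 6 and 3 after quantile normalization. The count of 10 was 5 without untreated animal 1, 6 without 2 and 19 without treated animal 14, and 15 with a robust prior. Cyp17a1, a steroid hydroxylase, was higher under both (0.54 ± 0.12 and 0.57), as were Cyp2a1 (0.41 ± 0.09 and 0.36) and Fmo1 (0.27 and 0.26). Cyp2e1, which metabolises ethanol, had 0.39 as deposited and 0.01 after quantile normalization. Cyp2d4 (-0.57 ± 0.09 and -0.55) and Cyp3a9 (-0.66 and -0.66) were lower under both. Cyp2c12, the female-predominant P450 of rat liver, was lower as deposited (-1.26 ± 0.52 and -1.22). Cyp2c12 spread widely, with 187.3, 409.9 and 901.8 in untreated and 290.1, 142.2 and 104.5 in treated livers, and its groups overlap. In conjugation, Sult2a6, a hydroxysteroid sulfotransferase, was higher by 0.74 ± 0.18 (adjusted p = 0.395) and Ugt2b1, a glucuronosyltransferase, lower by -1.07 ± 0.31 (adjusted p = 0.421), both without overlap and with near-identical relatives that could share signal.

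**Figure D3:**
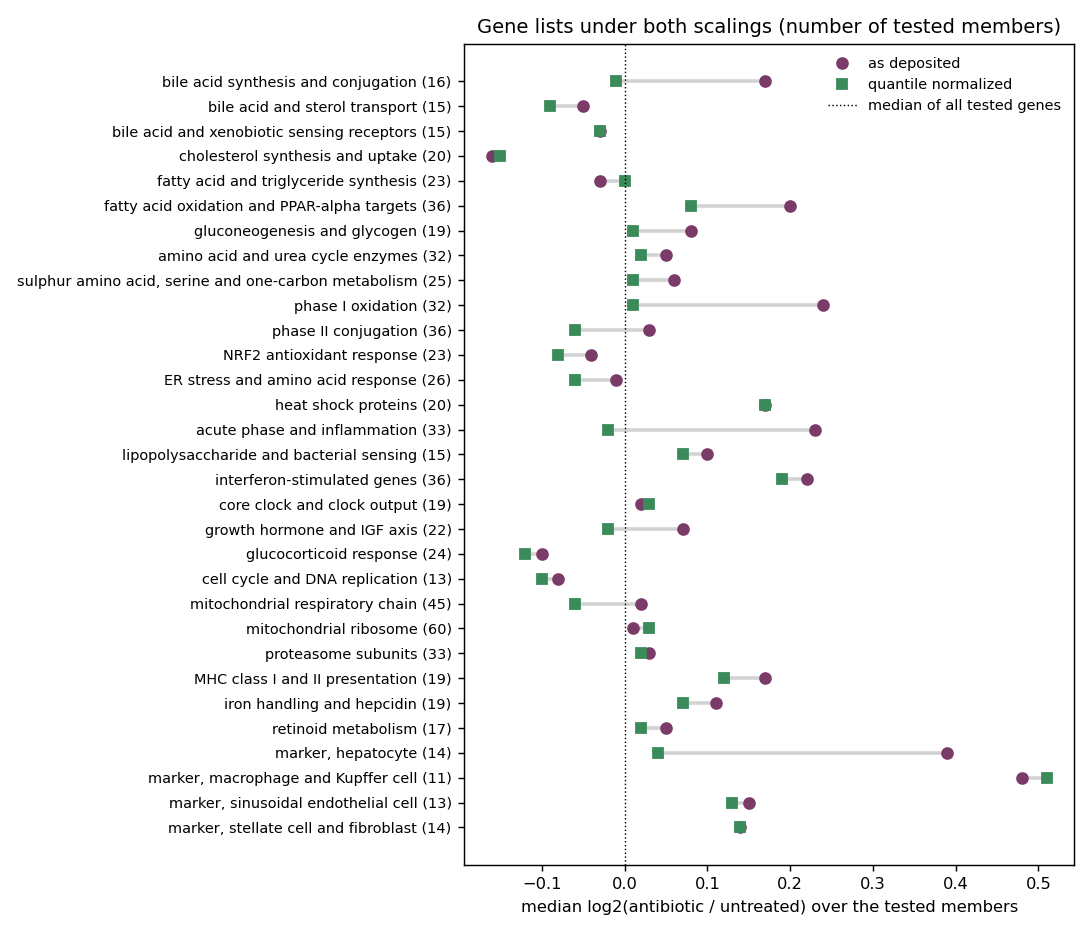
Median log2 difference (treated minus untreated) over the tested members of 31 gene lists with at least 10 tested members, as deposited (circles) and after quantile normalization (squares); the number of members is in parentheses and the dotted line is the median of all tested genes, 0.00. The macrophage and Kupffer cell list is farthest to the right under both (0.48 and 0.51), and the hepatocyte, acute phase and phase I lists move from 0.39, 0.23 and 0.24 to 0.04, -0.02 and 0.01.

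Fatty acid oxidation genes and targets of PPAR-alpha, the fasting-induced receptor, gave 10 higher and 1 lower of 36 as deposited (27.8% and 2.78%). After quantile normalization they gave 6 and 1. Of all genes, 6.11% were higher and 5.74% lower as deposited, and 5.07% and 5.61% after quantile normalization. Cpt1a, which brings fatty acids into mitochondria, had 2000.1, 1773.7 and 1429.8 in untreated and 2457.8, 2679.0 and 2321.2 in treated livers (log2 0.53 ± 0.13; adjusted p = 0.395; 0.43 quantile normalized). Every treated liver was higher. Acot1, a cytosolic acyl-CoA thioesterase with near-identical relatives, had 47.9, 30.6 and 48.2 against 239.0, 56.8 and 115.8 (log2 1.23 ± 0.39; adjusted p = 0.455), and animal 13 was highest. Fgf21, the fasting hormone, had 36.3, 28.6 and 27.0 against 53.3, 37.7 and 47.7 (log2 0.41 ± 0.16; adjusted p = 0.519). The count of 10 depended on single animals: it was 20 without treated animal 14, 5 without 15, 6 without 13 and 6 without untreated animal 2. Heat shock proteins, the folding helpers of cytosol and mitochondria, gave 7 higher of 20 (35%) as deposited and 6 (30%) after quantile normalization. None was lower, and the median was 0.17 under both. Hsph1 (0.21 ± 0.08), Hspa9 (0.25 ± 0.09) and Fkbp4 (0.33 ± 0.09; adjusted p = 0.408) did not overlap between groups.

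Kupffer cell and macrophage genes had mostly higher signals in treated livers under both scalings. Of 11 markers measured, 5 were higher and 1 lower at an unadjusted p under 0.05, as deposited and after quantile normalization (45.5% and 9.09%, against 6.11% and 5.74% over all genes as deposited and 5.07% and 5.61% quantile normalized), with medians of 0.48 and 0.51; 10 of the 11 differences were above 0. C1qa, a subunit of complement C1q made by macrophages, had 476.4, 425.0 and 391.5 in untreated and 544.4, 820.8 and 767.2 in treated livers (log2 0.68 ± 0.15; adjusted p = 0.384). Clec4f, a lectin of Kupffer cells, had 547.0, 408.7 and 385.7 against 572.5, 745.1 and 672.6 (log2 0.56 ± 0.15; adjusted p = 0.397). Cd68, a lysosomal protein of macrophages, had 115.0, 93.0 and 66.1 against 117.6, 168.9 and 161.1 (log2 0.63 ± 0.19; adjusted p = 0.434). In all 3 genes treated animal 13 lay only a little above the highest untreated animal, 1. Adgre1, the F4/80 antigen, and C1qc overlapped between groups (0.58 ± 0.24 and 0.51 ± 0.21), and Lyz2, a lysozyme of macrophages and granulocytes, was lower (-0.23 ± 0.09). The sum of the 11 marker signals was 2440.6 to 3328.4 in untreated and 2999.5 to 4274.4 in treated livers, so the sums overlap and no marker was at 0. Without untreated animal 2 or 3, or treated animal 14 or 15, the count of 5 became 3, and without untreated animal 1 or treated animal 13 it became 8. Of the other non-hepatocyte cell types, 0 of 13 sinusoidal endothelial markers differed at an unadjusted p under 0.05, and 1 of 14 stellate cell markers, Sparc (0.51 ± 0.14), whose second probe set gave -0.01. Without untreated animal 1, 4 of the 13 and 4 of the 14 were higher, and no test compared the cell type lists. Ptprc, the pan-leukocyte antigen CD45, was higher (0.41 ± 0.14; adjusted p = 0.49) at an unadjusted p under 0.05. Of 8 neutrophil markers on the array 6 were below the median signal, and the 2 others were S100a9 (0.61 ± 0.26) and Lcn2 (-0.08 ± 0.16), with 0 higher after quantile normalization. Cd14, outside the marker lists, overlapped between groups (-0.04 ± 0.12). Of 15 lipopolysaccharide and bacterial sensing genes, 0 were higher and 2 lower (0% and 13.3%) at an unadjusted p under 0.05 under both scalings.

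**Figure D4:**
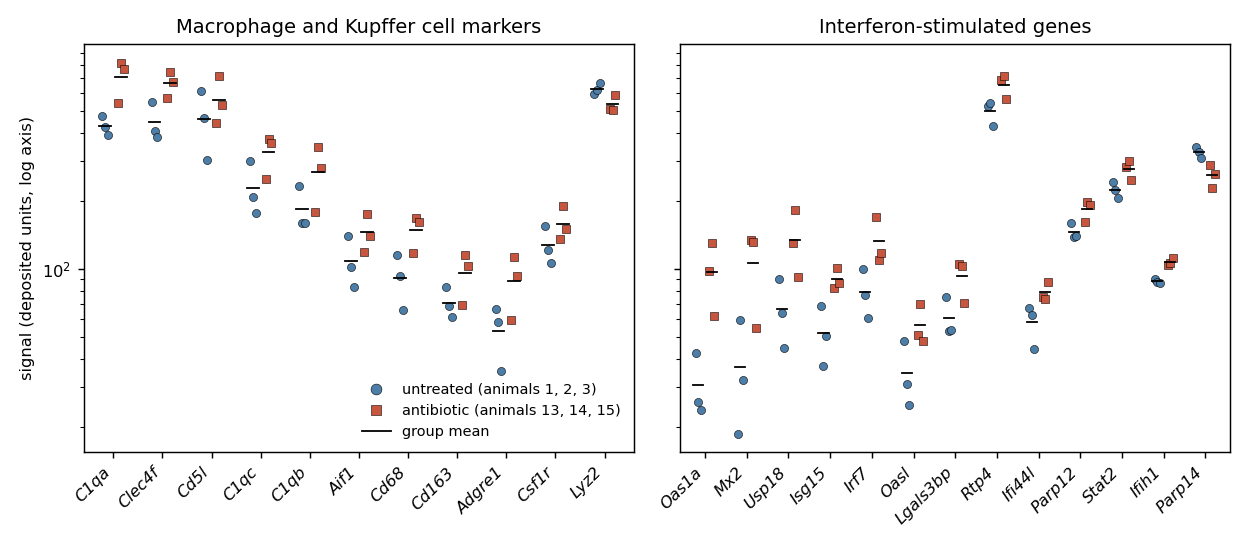
Signals in each liver, on a log axis, of the 11 macrophage and Kupffer cell markers and of the 12 interferon-stimulated genes higher under both scalings plus Parp14, the lower one; circles are untreated, squares treated animals and lines group means. Treated animal 13 is the lowest treated animal in most macrophage markers, and the interferon genes are mostly but not always above the untreated animals.

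Interferon-stimulated genes, which encode antiviral enzymes and their regulators, also had mostly higher signals. Of 36 tested, 13 (36.1%) were higher and 1 lower at an unadjusted p under 0.05, where 6.11% of all genes were higher; after quantile normalization 12 were higher and 1 lower, and the medians were 0.22 and 0.19. The member lost was Ifi27, a bright gene that went from 0.31 to 0.06. Oas1a, which makes the 2′-5′ oligoadenylates that activate RNase L, had 42.4, 25.8 and 23.7 in untreated and 98.4, 130.1 and 61.7 in treated livers (log2 1.25 ± 0.25; adjusted p = 0.342), with no overlap. Usp18, which removes ISG15 and limits interferon signalling, had 90.7, 63.6 and 44.6 against 131.1, 182.5 and 91.9 (log2 0.87 ± 0.26; adjusted p = 0.424). Isg15, a ubiquitin-like modifier, had 68.4, 37.4 and 50.6 against 82.3, 101.4 and 86.8 (log2 0.66 ± 0.18; adjusted p = 0.397). Treated animal 15 was lowest in Oas1a and Usp18, where the margin above the untreated animals was narrow in Usp18. Irf7, a transcription factor of the interferon pathway, had 100.1, 76.9 and 60.7 against 170.6, 109.5 and 118.0 (log2 0.64 ± 0.19; adjusted p = 0.438). Mx2 had 18.7, 59.4 and 32.3 against 133.9, 131.8 and 55.0 (log2 1.21 ± 0.35; adjusted p = 0.421), where treated animal 15 lay below untreated animal 2 and a second probe set gave -0.22. Parp14 was the lower member (-0.32 ± 0.10; adjusted p = 0.455). The count of 13 was 6 without untreated animal 2, 3 or treated animal 14. Macrophage markers, given above, were higher in the same treated livers, and their part in the interferon result was not tested.

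The promoters of 29 of the 36 interferon genes were found in the RefSeq promoter table (build GRCr8), as 250 bases before to 50 after the start of each gene. The motif searched was TTTC, 2 bases of any kind and TTTC again, which on the other strand reads GAAA, 2 bases and GAAA. It is the core of the site that interferon-activated factors bind, and was searched on both strands in the 250 bases before the start, with overlapping matches counted. It occurred in 902 of 27457 promoters (3.29%) and in 18 of the 29 (62.1%). Of the 13 higher genes 9 had a promoter in the table, and Isg15 and Usp18 did not. The motif occurred in 7 of these 9 and in 11 of the 20 others (55%). The list was drawn up as genes that interferon induces, which favours a high share whatever happened in these livers. The following 100-base windows are from 5 of the 7 higher genes with the motif, which is in capitals. Ifi27 and Ifi44l also carry it and are not shown. Each window is written 5′ to 3′ in the direction of its gene.
Oas1a, chr12:41330366-41330465, + strand: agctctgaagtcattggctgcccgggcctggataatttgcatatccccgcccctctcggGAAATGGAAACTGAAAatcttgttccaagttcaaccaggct
Irf7, chr1:205800038-205800137, - strand: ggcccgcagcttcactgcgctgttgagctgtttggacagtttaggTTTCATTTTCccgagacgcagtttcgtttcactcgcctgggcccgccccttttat
Ifih1, chr3:67683973-67684072, - strand: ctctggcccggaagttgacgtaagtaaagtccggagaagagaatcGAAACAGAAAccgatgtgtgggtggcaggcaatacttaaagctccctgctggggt
Lgals3bp, chr10:104127849-104127948, - strand: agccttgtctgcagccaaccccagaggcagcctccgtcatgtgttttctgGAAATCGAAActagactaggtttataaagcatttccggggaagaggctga
Parp12, chr4:68850542-68850641, - strand: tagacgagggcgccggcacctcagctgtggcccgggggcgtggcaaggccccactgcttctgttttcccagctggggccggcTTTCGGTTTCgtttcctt
Oas1a has 2 overlapping copies on the reverse strand, and the other 4 have 1 each. Matching letters describe a sequence and show neither binding nor the cause of a difference.

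The antibiotic and germ-free comparisons, which share no arrays, differed in 496 of 31042 probe sets (1.6%; adjusted p under 0.05 for the difference of the differences over all 12 arrays in limma). Of these, 429 had an adjusted p under 0.05 for germ-free against conventional, which 4.98% of all probe sets had. In the fit over all 12 arrays, 196 of the 496 had an unadjusted p under 0.05 for antibiotics, as did 2259 of all 31042. A called difference is made of both effects on these same arrays and so favours small p-values for either. The counts of 429 and 196 are therefore a description. The signs were opposite in 417 of the 496, which a called difference favours. Strain and experiment differ along with the treatment and cannot be told apart from it. Leaving out single animals moved the count of 496 to 267 without untreated animal 2, 275 without germ-free animal 3, 280 without treated animal 13, 306 without untreated animal 3, 317 without treated animal 15 and 326 without untreated animal 1. Among the 172 named genes, 34 differed, 30 of them opposite in sign; a called difference favours opposite signs, and genes were named partly for large antibiotic differences, so this count is a description. Igfbp2 had 3.03 with antibiotics and -1.48 in germ-free livers, where the difference of 4.51 ± 0.75 had an adjusted p of 0.00902. Bcl6 had -2.38 and 2.07 (difference -4.45 ± 0.75; adjusted p = 0.00957). Abcg5 had 0.92 and -2.10, and Acot1 1.23 and -3.36. Egfr (-0.95 and 0.60), Rusc2 (-0.97 and 0.97), Cyp17a1 (0.54 and -0.97), Cpt1a (0.53 and -0.74), Plin2, which coats lipid droplets (0.32 and -1.24; a second probe set gave -0.24 with antibiotics), and Sesn2 (-0.60 and 1.81) were also opposite. Cyp51 and Idi1 of cholesterol synthesis had -0.33 and -0.34 with antibiotics, where both groups overlap (unadjusted p = 0.0956 and 0.151 in limma), and -2.41 and -2.64 in germ-free livers. Of the 36 interferon genes tested, 2 differed between the comparisons: Parp9 had 0.14 with antibiotics and 0.98 in germ-free livers (adjusted p of the difference = 0.0102 in limma), and Dtx3l, its partner protein, had 0.13 and 0.94 (adjusted p = 0.0165). Among those named, Isg15 had 0.66 and 1.74 and Usp18 0.87 and 2.10, and their differences did not pass (adjusted p = 0.0888 and 0.141), which does not show that they were alike.

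**Figure D5:**
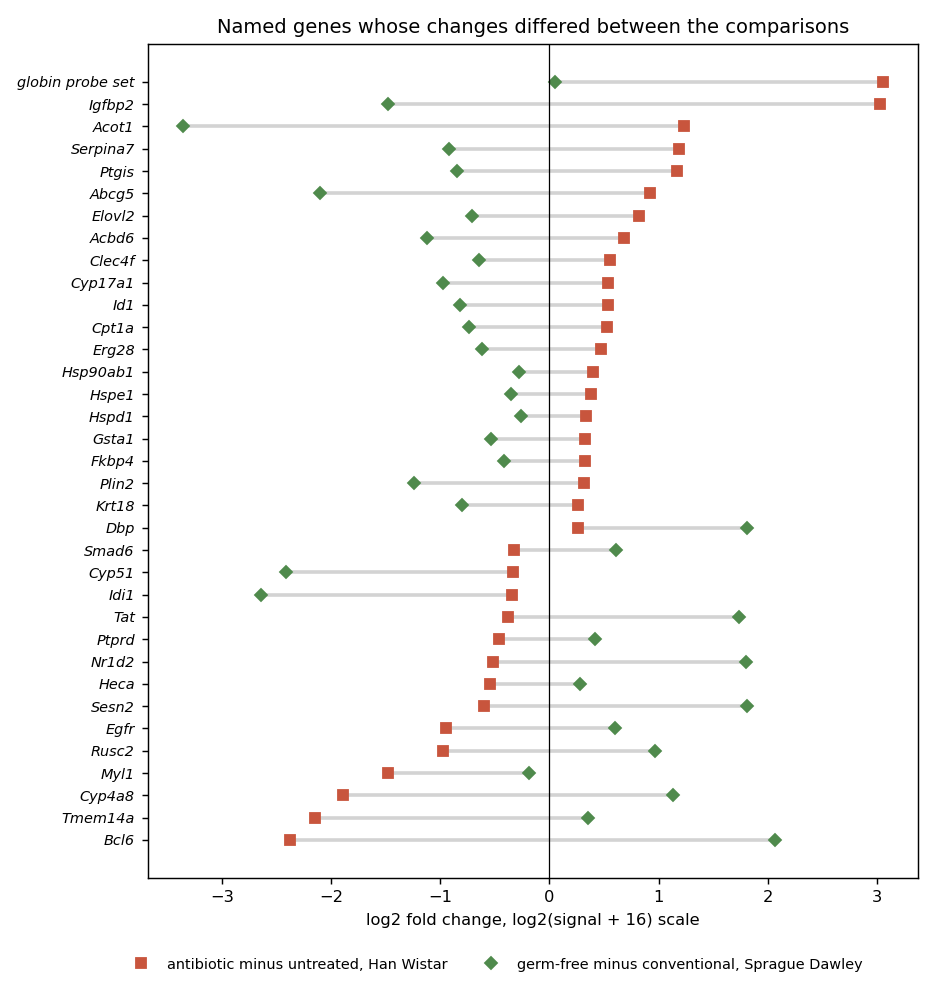
Log2 difference with antibiotics in Han Wistar (squares) and in germ-free Sprague Dawley livers (diamonds) for the 34 named genes whose difference between the comparisons passed (adjusted p under 0.05) and for a beta-globin probe set annotated to more than 1 gene. Most lie on opposite sides of 0; Myl1, Cyp51, Idi1, Dbp and the globin probe set do not.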

How the data were processed

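Liver RNA of 12 rats was hybridised to Affymetrix arrays, 1 per animal, after extraction on RNeasy columns (labels' protocols). The authors deposited a linear signal intensity for every probe set of each array; the submitters' processing notes name MAS5, with its version not given in the sources used here. Signals were used as deposited, because the means of the arrays, trimmed by 2% at each end, lay within 1.1-fold of each other.

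Of 31099 probe sets, 57 controls were set aside. Of the remaining 31042, the platform annotation gave 20826 exactly 1 gene symbol, 436 more than 1 and 9780 no symbol. RefSeq symbols were taken for 20758 by gene identifier and for 2 by accession, while 66 stayed as annotated; several-symbol probe sets are named by identifier. For lists, a gene was represented by its brightest probe set, and genes at or above the median mean signal of 19.45 (9323) were counted; dimmer members were counted apart.

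Values were log2(signal + 16), and the model was limma 3.58.1 under R 4.3.3 (lmFit, eBayes with an intensity trend; 4 residual and 4.27 prior degrees of freedom). Fold changes on this scale understate changes of dim genes. P-values are two-sided, adjusted by Benjamini-Hochberg over all probe sets. The difference between comparisons used all 12 arrays. The number of arrays limits precision. The fit was tested on simulated data.

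Named genes were up to 15 in each direction by p, with groups that do not overlap and signal at or above the median; the 5 largest and 5 smallest log2 differences; a fixed set of bile acid genes with Cd14, Isg15 and Usp18; and the 4 members of smallest p in each list. Other list members given, the muscle list and the globin probe sets were picked with their values in view. The members and lists were chosen with earlier results of these data known. Alternatives were other offsets, signal filters, quantile normalization, median centring, all 12 arrays, other variance priors, array weights, other gene summaries and leaving out each animal; tabulating each list after quantile normalization was added after seeing the data.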

Additional observations from a re-analysis of the deposited data

Results flagged for a closer look

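The values here are differences on the log2 scale between the antibiotic effect in Han Wistar and the germ-free effect in Sprague Dawley livers, each with an adjusted p under 0.05 in limma over all 12 arrays; a positive value means that the antibiotic effect was the higher. Only the 172 named genes and the globin probe sets were looked through, and those given here are the ones whose difference itself passed that test. Of all 31042 probe sets 496 passed it, so most of those that differed are not listed. Strain and experiment cannot be told apart from the difference. The effect was higher with antibiotics in Igfbp2 (4.51), Abcg5 (3.02), Acbd6 (1.81), Serpina7 (2.11), Elovl2 (1.53), Erg28 (1.09), Ptgis (2.02), Acot1 (4.59), Cyp51 (2.08) and Idi1 (2.30). The same held for Cpt1a (1.26), Plin2 (1.56), Cyp17a1 (1.51), Gsta1 (0.85), Hspe1 (0.72), Hspd1 (0.60), Fkbp4 (0.74), Hsp90ab1 (0.68), Id1 (1.35), Clec4f (1.20) and Krt18 (1.06). It was lower with antibiotics in Bcl6 (-4.45), Tmem14a (-2.49), Myl1 (-1.29), Rusc2 (-1.94), Egfr (-1.54), Heca (-0.82), Ptprd (-0.87), Cyp4a8 (-3.02), Sesn2 (-2.41), Nr1d2 (-2.32), Dbp (-1.55), Tat (-2.12) and Smad6 (-0.93). Mean signals in germ-free and conventional livers were 9 and 3.233 for Tmem14a, and 7.067 and 10.37 for Myl1. At such low signals a germ-free fall in these 2 genes could hardly have been seen.

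One probe set annotated to more than 1 beta-globin gene differed by 3.01 ± 0.38 (SE; adjusted p = 0.00223), with 3.06 under antibiotics and 0.05 in germ-free livers.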

How the results depend on the processing

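The count of probe sets past the adjusted threshold was 0 as reported, 1 with an offset of 1, 1 for signals at or above the median, 1 at or above the 75th percentile and 1 with median centring, in all 4 cases the globin probe set. It was 4 with all 12 arrays and 3 with 1 probe set per gene, and leaving out single animals gave 0 to 2. At an unadjusted p under 0.05 the count of 2753 became 1189 above the 75th percentile, 1154 with 1 probe set per gene and 1435 with probe sets averaged per gene, where fewer features were tested. Leaving out single animals gave 2111 to 2803. The 1442 higher ones became 632, 622 and 789 under those 3 settings and 901 with median centring, and 1034 to 1509 without single animals. The 496 probe sets that differed between the comparisons became 761 above the median signal, and 267 to 574 without single animals.

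No named gene changed sign with an adjusted p under 0.05 in an alternative. Few probe sets passed in any alternative, so this could hardly occur and shows no stability. Quantile normalization changed the sign of 7 of the 172, and leaving out single animals that of 2 to 5. No paired analysis was possible because the groups compared, animals 1 to 3 and 13 to 15, share no replicate number. Dim probe sets carry no detection call, so a low signal gives no bound.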

Other observations

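A globin probe set annotated to both Hbbl1 and Hbb-bs had the smallest p of all probe sets in the antibiotic comparison. Its signals were 326.0, 206.1 and 220.1 in untreated and 3264.3, 1425.9 and 2181.2 in treated livers, with no overlap. The log2 difference was 3.06 ± 0.28 (SE), with an adjusted p of 0.113 in the 6-array fit and 0.000881 in the fit over all 12 arrays. Another probe set with the same annotation had 2342.9, 1618.0 and 1743.5 against 2841.2, 1360.0 and 1703.2, a difference of -0.00 ± 0.26. Hbb itself gave 0.22 ± 0.19, and the alpha-globin probe sets 0.11 to 0.35. The 2 probe sets with the same annotation did not move together.

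Of 21 skeletal muscle genes on the array, 17 lay below the median signal, and of the other 4, 3 were lower at an unadjusted p under 0.05, in a list drawn up once these values were known. Over all genes as deposited, 5.74% were lower at that limit. Myl1, a myosin light chain, had 33.3, 37.3 and 53.0 in untreated and 7.7, 5.0 and 0.8 in treated livers (log2 -1.48 ± 0.20; adjusted p = 0.31, and 0.0141 over all 12 arrays). Acta1, skeletal actin, had 39.5, 38.4 and 73.5 against 15.2, 10.1 and 0.7 (log2 -1.44 ± 0.28; adjusted p = 0.342). Myl1 and Acta1 met the minimum signal of 19.45 only through their untreated livers, so being counted at all favoured a lower result. Myh4 (-0.78), Tnnc2 (-0.84) and Ckm (-0.72) were lower at signals near or under the median of all probe sets, while Pvalb, which muscle also makes, was higher (0.44) at signals of 0.8 to 10.3. Myh1 stood apart, with signals of 1665.9 to 2754.8 in all 6 livers and a difference of -0.35 ± 0.13.

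The pancreatic amylase gene Amy2a3 had a signal of 282.6 in untreated animal 2 and 2.5 to 38.4 in the other 5 livers.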
